A study of Mus musculus with 8 samples.

Results

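The genes described here make cholesterol in the liver, move it inside the cell, export it and, through SREBP2, adjust its supply. The list has 31 genes, and 27 of them were measured, out of 12393 genes measured in all. A gene was measured where the array annotation assigned at least 1 probe set to it and to no other gene, and the probe set with the highest mean over the arrays stands for it. Acat2, Insig1, Soat1 and Soat2 had no such probe set and are not analysed here. Values are log2 expression, so a difference of 1 is a doubling, and each probe set has its own scale, so levels are compared between arrays and never between genes.

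Liver RNA of C57BL mice on standard chow was measured on 8 Affymetrix arrays, with 2 per genotype and 4 genotypes: wild-type, SHP knockout (SHP-/-), leptin knockout (OB-/-) and the knockout of both (OB-/-/SHP-/-). SHP, encoded by Nr0b2, is a nuclear receptor that represses other transcription factors, and mice without leptin overeat and become obese. The labels give no age or sex, and they do not say whether the paired arrays of a genotype are different mice, so p-values measure the spread between these arrays, which may be technical. All groups share the strain, tissue and diet, and the design asks how each gene responds to SHP loss with and without leptin, and to leptin loss with and without SHP.

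Cholesterol is built from acetyl-CoA through mevalonate, isoprenoid diphosphates, squalene and lanosterol, and the isoprenoids also feed protein prenylation and the synthesis of ubiquinone and dolichol. When sterols run low in the endoplasmic reticulum, Scap carries the transcription factor SREBP2 to the Golgi, where it is cut and released to raise the enzymes of the pathway, and when sterols are plentiful the Insig proteins hold Scap back. In the liver the product is secreted in lipoproteins, stored as ester or turned into bile acids.

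SREBP2 acts on promoters together with the factors NF-Y and Sp1, so 4 promoters of members whose levels differed between genotypes are shown: those of the enzymes Hmgcs1, Nsdhl and Cyp51, and that of Srebf2 itself. Each is the 250 bases before the start of transcription, 5′ to 3′ on the strand of the gene, from RefSeq. Capitals mark matches, on either strand, to the sterol regulatory element searched as TCACNCCAC, the NF-Y box CCAAT and the Sp1 box GGGCGG; no capitals overlap between motifs.
Hmgcs1 (GRCm38.p6, chr13:119690101-119690350, plus strand): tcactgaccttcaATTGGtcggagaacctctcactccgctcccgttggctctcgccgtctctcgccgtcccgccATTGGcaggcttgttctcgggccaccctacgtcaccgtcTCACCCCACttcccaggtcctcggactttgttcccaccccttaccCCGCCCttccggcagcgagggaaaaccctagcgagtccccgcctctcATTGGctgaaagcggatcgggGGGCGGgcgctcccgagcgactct
Nsdhl (GRCm38.p6, chrX:72918271-72918520, plus strand): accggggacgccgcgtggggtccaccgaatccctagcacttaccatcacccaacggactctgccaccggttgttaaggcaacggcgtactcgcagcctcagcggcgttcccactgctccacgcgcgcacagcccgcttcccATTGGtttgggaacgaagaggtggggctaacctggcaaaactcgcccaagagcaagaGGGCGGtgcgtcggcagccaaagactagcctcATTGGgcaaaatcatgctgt
Cyp51 (GRCm38.p6, chr5:4104698-4104947, minus strand): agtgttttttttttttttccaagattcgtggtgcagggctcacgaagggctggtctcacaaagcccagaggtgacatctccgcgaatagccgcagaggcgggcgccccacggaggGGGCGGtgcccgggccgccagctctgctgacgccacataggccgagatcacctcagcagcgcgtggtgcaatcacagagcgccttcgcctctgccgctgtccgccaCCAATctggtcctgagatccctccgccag
Srebf2 (GRCm38.p6, chr15:82147019-82147268, plus strand): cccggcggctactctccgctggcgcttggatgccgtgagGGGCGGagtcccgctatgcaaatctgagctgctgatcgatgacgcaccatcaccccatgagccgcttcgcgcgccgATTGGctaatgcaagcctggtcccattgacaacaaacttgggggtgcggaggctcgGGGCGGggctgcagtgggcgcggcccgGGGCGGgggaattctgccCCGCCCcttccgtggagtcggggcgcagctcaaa

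Promoter windows were given for 21 of the 27 measured members, some with several start sites. The NF-Y box was in a window of 19 of these 21 members (90.5%), against 37.5% of the 27025 genes with a window. The Sp1 box was in 18 of 21 (85.7%), against 35.4% of genes. The strict sterol element was in 1 of 21, Hmgcs1, where it lay 137 to 129 bases before the start, against 1.22% of genes. A match is a description of letters and not a measured site, and a window without one says nothing about binding.

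The arrays carried differences that the genotype labels do not state. Nr0b2, the targeted gene of SHP-/-, read 8.74 and 8.71 in wild-type, 7.78 and 8.31 for SHP-/-, 8.01 and 8.01 for OB-/- and 7.11 and 6.66 for OB-/-/SHP-/-; whether its probe set lies in the deleted part is not known here. Lep, which encodes leptin and which liver hardly expresses, lay between 3.16 and 3.53 throughout. OB-/- replicate 1 stood apart in Xist (7.41, against 4.70 or less elsewhere) and SHP-/- replicate 1 in Fos (11.95, against 6.98 or less). The Y-linked gene Eif2s3y lay between 6.57 and 7.50 over the arrays, and OB-/- replicate 1, at 6.99, did not stand apart in it. The 3′ minus 5′ offset of the Gapdh control, which grows as RNA degrades, was 0.79 and 1.00 in wild-type, 0.19 and 0.35 for SHP-/-, -0.07 and -0.01 for OB-/- and 0.03 and 0.11 for OB-/-/SHP-/-. RNA quality therefore moved with genotype, and its part in the results below was not tested. All 5 measured hepatocyte markers were at 11.71 or above on every array, and 2 of them fell in OB-/- minus wild-type, Cps1 by 0.51 ± 0.14 and Tat by 0.65 ± 0.15. In that comparison 3 of 6 endothelial markers rose (Lyve1 by 3.31 ± 0.28, Pecam1 by 1.40 ± 0.19 and Cdh5 by 0.93 ± 0.19), as did 2 of 6 stellate cell markers, Col1a1 and Col3a1, and 1 of 2 adipose markers. The summed linear level of the endothelial markers was 444 to 629 in wild-type and 721 to 802 in OB-/-, and that of the stellate markers 1392 to 1438 and 1791 to 1792. The acinar pancreas markers had a summed linear level of 72.2 to 76.7 in wild-type, 73.1 to 82.2 in SHP-/-, 346 to 608 in OB-/- and 105 to 111 in OB-/-/SHP-/-. In OB-/- minus wild-type 4 of 5 rose. In OB-/-/SHP-/- minus SHP-/-, 2 of 6 endothelial, 2 of 5 acinar and 1 of 2 adipose markers rose. In OB-/-/SHP-/- minus OB-/-, 3 of 5 acinar and 1 of 6 stellate markers fell, and 1 of 5 hepatocyte markers rose. Macrophage markers are given below with Lipa. The part of these other cell types in the results below was not tested.

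Leptin loss with SHP present, OB-/- minus wild-type, moved members in both directions. Of 27 members 7 rose, Hmgcs1, Fdps, Ggps1, Tm7sf2, Nsdhl, Sc5d and Lipa, where 7.58% of all genes rose. A further 4 fell, Sqle, Srebf2, Scap and Stard4, where 9.36% of all genes fell. Calls were made at an adjusted p below 0.05 in a limma fit over all genes and all 8 arrays. The called share was 40.7% of members and 16.9% of all genes, and the median difference was 0.09 over members and -0.01 over all genes. The member median rests on single arrays: it was 0.19 without wild-type replicate 1, -0.05 without wild-type replicate 2, 0.06 without OB-/- replicate 1 and 0.05 without OB-/- replicate 2. Without SHP, OB-/-/SHP-/- minus SHP-/-, 5 members rose, Fdps, Cyp51, Nsdhl, Dhcr7 and Insig2 (4.95% of all genes rose), and 4 fell, Srebf2, Scap, Stard4 and Npc1 (5.62% fell). In bulk tissue fewer cells of a type and less RNA per cell cannot be told apart.

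**Figure D1:**
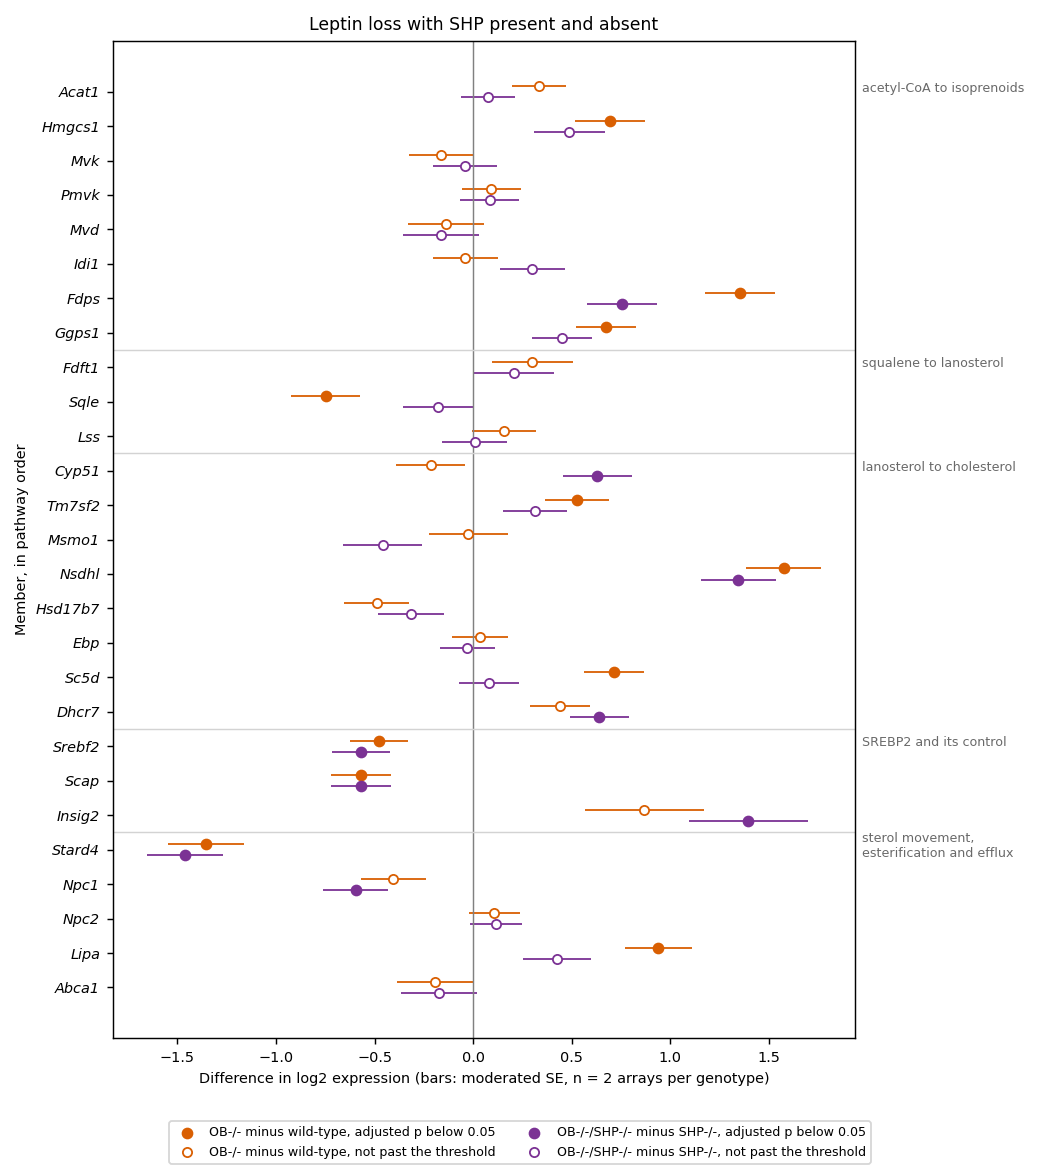
Difference in log2 expression between leptin-null and leptin-intact mice for each of the 27 measured members, in pathway order, with SHP present (orange) and absent (purple); bars are moderated standard errors, n = 2 arrays per genotype, and filled points have an adjusted p below 0.05. Nsdhl and Fdps lie to the right and Stard4 to the left in both comparisons.

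These 2 comparisons share no array. Of the 27 members 24 had the same sign in both (88.9%, against 72.3% of all genes). The calls in both were those of Fdps and Nsdhl, which rose, and of Srebf2, Scap and Stard4, which fell. These 5 made up 45.5% of the members called with SHP present and 55.6% of those called without it, and over all genes the corresponding shares were 40% and 64.1%.

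The enzymes from acetyl-CoA to isoprenoids held 8 measured members, of which 3 rose with leptin loss in mice with SHP and 1 rose in mice without it. Fdps joins isoprenoid units into farnesyl diphosphate. It read 8.99 and 8.55 in wild-type, 9.90 and 9.52 for SHP-/-, 10.12 and 10.12 for OB-/- and 10.54 and 10.39 for OB-/-/SHP-/-. The genotypes do not overlap, with wild-type lowest and the double knockout highest. Fdps rose 2.56-fold in OB-/- relative to wild-type (1.35 ± 0.18 on the log2 scale, SE, adjusted p = 4.9e-04), a call that survived the loss of each array in turn. It rose by 0.76 ± 0.18 in OB-/-/SHP-/- against SHP-/- (adjusted p = 0.0214), a call lost without SHP-/- replicate 2 or without either OB-/-/SHP-/- array (adjusted p up to 0.134). A second, dim Fdps probe set lay between 2.80 and 3.25 on every array and showed 0.00 ± 0.14 for OB-/- minus wild-type, and the mean of both probe sets showed 0.68 (adjusted p = 0.00856).

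Hmgcs1, the cytosolic HMG-CoA synthase, makes the precursor of mevalonate. Its level was 11.07 and 10.48 in wild-type, 10.78 and 10.79 for SHP-/-, 11.50 and 11.44 for OB-/- and 11.21 and 11.33 for OB-/-/SHP-/-. Both leptin-null genotypes lie above both leptin-intact ones. Hmgcs1 rose by 0.69 ± 0.18 in OB-/- relative to wild-type (adjusted p = 0.0216). That value was 0.40 without wild-type replicate 2 (adjusted p = 0.157), and the call was also lost without either OB-/- array. All 4 of its probe sets passed in this comparison when each was tested by itself, with differences of 0.69 to 1.37. Without SHP the difference was 0.49 ± 0.18 (adjusted p = 0.110), and of the other probe sets 1 rose, by 0.78 ± 0.18 (adjusted p = 0.0277 over all probe sets).

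Ggps1, which lengthens farnesyl to geranylgeranyl diphosphate, read 5.17 and 5.36 in wild-type, 5.58 and 5.23 for SHP-/-, 5.96 and 5.91 for OB-/- and 5.81 and 5.90 for OB-/-/SHP-/-. It rose by 0.67 ± 0.15 in OB-/- relative to wild-type (adjusted p = 0.0115), and the call was lost without wild-type replicate 1 or either OB-/- array. With the mean of its 4 probe sets that difference was 0.23 (adjusted p = 0.262). Without SHP the difference was 0.45 ± 0.15 (adjusted p = 0.0847). The next brightest probe set rose there by 0.62 ± 0.16 (adjusted p = 0.0430 over all probe sets), and the dimmest ones differed by -0.13 and -0.05. The kinases Mvk and Pmvk, the decarboxylase Mvd and the isomerase Idi1, which turn mevalonate into isoprenoid units, passed in no comparison. Over the 8 arrays Mvk lay between 6.58 and 7.00, Pmvk between 7.35 and 7.91, Mvd between 6.38 and 6.95 and Idi1 between 9.03 and 9.56. Their differences under leptin loss with SHP ran from -0.16 for Mvk to 0.09 for Pmvk. Acat1, a mitochondrial thiolase that also serves ketone bodies, lay between 11.56 and 12.07 and differed by 0.33 ± 0.14 (adjusted p = 0.128). Its dimmest probe set rose by 0.73 ± 0.16 (adjusted p = 0.0107 over all probe sets), and the remaining one differed by 0.24 ± 0.14 (adjusted p = 0.281). With the mean of its 3 probe sets Acat1 passed, with a difference of 0.44 (adjusted p = 0.0443).

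Squalene formation and closure to lanosterol are the work of Fdft1, Sqle and Lss. Sqle, the epoxidase that commits squalene to sterols, stood at 8.81 and 8.41 in wild-type, 8.64 and 8.95 for SHP-/-, 7.73 and 7.99 for OB-/- and 8.69 and 8.54 for OB-/-/SHP-/-. Both OB-/- arrays were lower than the other 6, which overlapped one another. Sqle fell by 0.75 ± 0.18 in OB-/- relative to wild-type (1.68-fold, adjusted p = 0.0144), a call lost without wild-type replicate 1 or OB-/- replicate 1 (adjusted p up to 0.137). In OB-/-/SHP-/- against SHP-/- the difference was -0.18 ± 0.18 (adjusted p = 0.574), with a 95% interval of -0.57 to 0.21. The squalene synthase Fdft1, at 9.12 to 9.90, and the cyclase Lss, at 7.15 to 7.69, passed in no comparison, with differences between 0.01 and 0.30 in both leptin comparisons.

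The steps from lanosterol to cholesterol held 8 measured members. Nsdhl, a dehydrogenase that removes methyl groups from the sterol ring, had the largest difference of any member in OB-/- against wild-type. It read 8.32 and 7.87 in wild-type, 8.68 and 8.67 for SHP-/-, 9.56 and 9.78 for OB-/- and 9.79 and 10.25 for OB-/-/SHP-/-. No genotypes overlap, and the order is that of Fdps. Nsdhl rose 2.98-fold in OB-/- relative to wild-type (1.58 ± 0.19, adjusted p = 3.0e-04) and 2.54-fold in OB-/-/SHP-/- against SHP-/- (1.35 ± 0.19, adjusted p = 0.00135). Both calls survived the loss of each array in turn.

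Sc5d, the desaturase that introduces a ring double bond late in the pathway, was high in OB-/- alone. It was 10.29 and 10.29 in wild-type, 10.41 and 10.30 for SHP-/-, 11.21 and 10.81 for OB-/- and 10.44 and 10.44 for OB-/-/SHP-/-. Both OB-/- arrays exceed the other 6. Sc5d rose by 0.71 ± 0.15 in OB-/- relative to wild-type (adjusted p = 0.00866), and the call was lost without either wild-type array or OB-/- replicate 1 (adjusted p up to 0.0862). Its second, dimmer probe set showed 0.09 in that comparison and fell by 0.85 ± 0.17 in OB-/-/SHP-/- against SHP-/- (adjusted p = 0.0124 over all probe sets), where the brighter one showed 0.08. The probe sets of Sc5d therefore disagree, and their mean gave 0.40 for OB-/- minus wild-type (adjusted p = 0.0387).

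Tm7sf2, a sterol reductase, read 9.44 and 9.68 in wild-type, 10.04 and 10.23 for SHP-/-, 9.90 and 10.28 for OB-/- and 10.40 and 10.51 for OB-/-/SHP-/-. Wild-type was the lowest genotype. Tm7sf2 rose by 0.53 ± 0.16 in OB-/- relative to wild-type (adjusted p = 0.0485). That call was lost with array medians made equal, with quantile normalisation and without either wild-type array, OB-/- replicate 2 or either OB-/-/SHP-/- array, and without OB-/- replicate 2 the value was 0.33 (adjusted p = 0.330).

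Dhcr7 makes the final reduction to cholesterol. Its arrays read 7.98 and 7.65 in wild-type, 7.91 and 8.15 for SHP-/-, 8.29 and 8.22 for OB-/- and 8.68 and 8.66 for OB-/-/SHP-/-. The double knockout was highest and its arrays overlap with no others. Dhcr7 rose by 0.64 ± 0.15 in OB-/-/SHP-/- against SHP-/- (adjusted p = 0.0220), a call lost without SHP-/- replicate 1 or either OB-/-/SHP-/- array (adjusted p up to 0.126). With SHP present the difference was 0.44 ± 0.15 (adjusted p = 0.0720).

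Of the remaining enzymes, Msmo1, Hsd17b7 and Ebp passed in no comparison, with levels of 9.65 to 10.50, 7.99 to 8.77 and 10.72 to 11.01 over the 8 arrays. Msmo1, which oxidises the methyl groups that Nsdhl helps to remove, differed by -0.02 ± 0.20 and -0.46 ± 0.20 under leptin loss with and without SHP. The ketosteroid reductase Hsd17b7 differed by -0.49 ± 0.17 and -0.32 ± 0.17, and the isomerase Ebp by 0.03 ± 0.14 and -0.03 ± 0.14. A second, dimmer Hsd17b7 probe set showed smaller differences there, -0.08 ± 0.17 and -0.003 ± 0.17. Under SHP loss it showed larger ones than the brightest, without passing. They were 0.52 ± 0.17 against 0.05 in SHP-/- minus wild-type, and 0.60 ± 0.17 against 0.22 in OB-/-/SHP-/- minus OB-/-. Msmo1 and Nsdhl, which act in the same demethylation, had unlike values, with Nsdhl above 1 in both leptin comparisons.

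**Figure D2:**
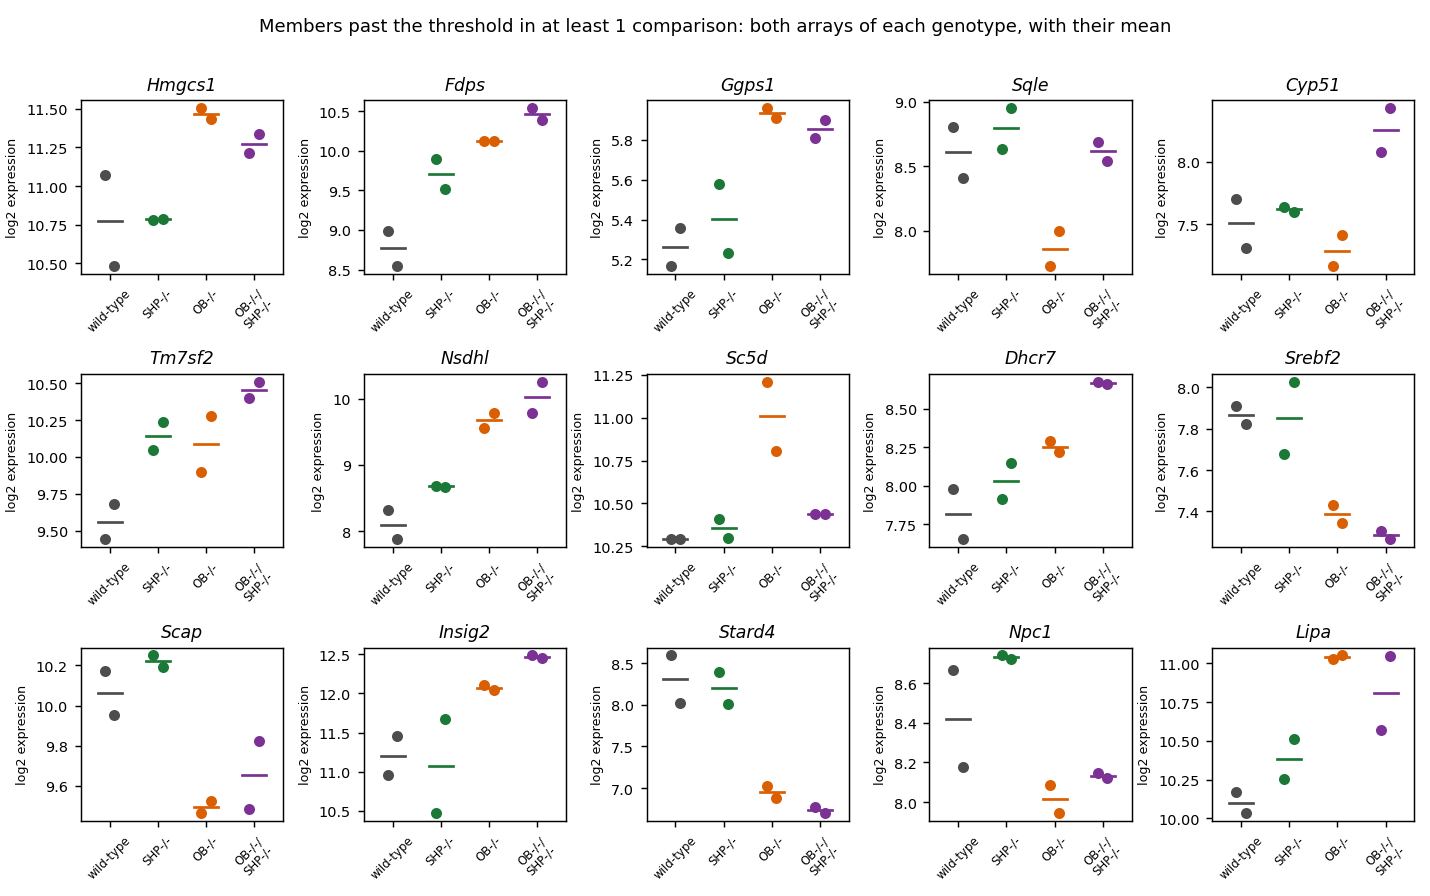
Log2 expression on each array for the 15 members past the threshold in at least 1 comparison, with both arrays of a genotype as points and their mean as a line; each panel has its own vertical range, which does not start at 0. Fdps and Nsdhl climb from wild-type to OB-/-/SHP-/-, Stard4, Scap and Srebf2 are lower in both leptin-null genotypes, and Cyp51 is highest in OB-/-/SHP-/-.

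Of the 3 measured genes of SREBP2 control, Srebf2 and Scap fell in both leptin comparisons, and Insig2 rose in 1. Srebf2, which encodes SREBP2, stood at 7.91 and 7.82 in wild-type, 7.68 and 8.03 for SHP-/-, 7.43 and 7.35 for OB-/- and 7.30 and 7.26 for OB-/-/SHP-/-. Both leptin-null genotypes lie below both leptin-intact ones. Srebf2 fell by 0.48 ± 0.15 with SHP (adjusted p = 0.0473) and by 0.57 ± 0.15 without it (adjusted p = 0.0331). Both calls lay near the threshold. Among the 8 arrays left out singly, the first was kept only without either SHP-/- array, and the second only without SHP-/- replicate 1. Leaving out an array of a genotype that is not compared changes the shared estimate of the spread and the adjusted p, but not the difference. Its second probe set fell by 0.83 ± 0.17 with SHP (adjusted p = 0.00913 over all probe sets) and differed by -0.53 ± 0.17 without it (adjusted p = 0.0910).

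Scap, the escort of SREBP2, read 10.17 and 9.95 in wild-type, 10.25 and 10.19 for SHP-/-, 9.47 and 9.52 for OB-/- and 9.48 and 9.82 for OB-/-/SHP-/-. Again the leptin-null arrays are the lower ones, with no overlap. Scap fell by 0.57 ± 0.15 in each comparison (adjusted p = 0.0256 with SHP and 0.0373 without). The first call was lost without any wild-type or OB-/- array (adjusted p up to 0.180), and the second without either SHP-/- array, either OB-/- array or OB-/-/SHP-/- replicate 1 (up to 0.157).

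Insig2, which retains the Scap and SREBP2 complex and is the form known from liver to be raised by fasting, had the opposite direction. Its level was 10.95 and 11.46 in wild-type, 10.47 and 11.67 for SHP-/-, 12.10 and 12.05 for OB-/- and 12.48 and 12.45 for OB-/-/SHP-/-. The leptin-null arrays agree closely within a genotype and lie above all others, while the SHP-/- arrays are 1.20 apart. Insig2 rose by 1.40 ± 0.30 in OB-/-/SHP-/- against SHP-/- (2.63-fold, adjusted p = 0.0150). The value was 0.80 without SHP-/- replicate 1 (adjusted p = 0.0409), and the call was lost without OB-/-/SHP-/- replicate 2 (adjusted p = 0.0681). With SHP present the difference was 0.87 ± 0.30 (adjusted p = 0.0745), and it passed without either SHP-/- array (adjusted p = 0.00438). The other Insig2 probe sets rose in both leptin comparisons, by 0.82 and 1.37 with SHP and by 1.29 and 1.60 without it.

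Among the genes that move sterol, Stard4 had the largest fall. Stard4 shuttles cholesterol between membranes in the cytosol. It read 8.59 and 8.02 in wild-type, 8.39 and 8.01 for SHP-/-, 7.02 and 6.88 for OB-/- and 6.78 and 6.70 for OB-/-/SHP-/-. The highest leptin-null array lies well below the lowest leptin-intact one. Stard4 fell by 1.35 ± 0.19 with SHP (2.56-fold, adjusted p = 8.7e-04) and by 1.46 ± 0.19 without it (2.76-fold, adjusted p = 9.15e-04). Both calls survived the loss of each array in turn, and its second probe set fell in both as well, by 0.66 ± 0.19 and 1.46 ± 0.19.

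Lipa, the lysosomal lipase that frees cholesterol from its esters, read 10.17 and 10.04 in wild-type, 10.26 and 10.51 for SHP-/-, 11.03 and 11.05 for OB-/- and 10.57 and 11.05 for OB-/-/SHP-/-. Wild-type was lowest and OB-/- overlaps only with OB-/-/SHP-/-. Lipa rose by 0.94 ± 0.17 in OB-/- relative to wild-type (1.92-fold, adjusted p = 0.00378), a call that survived the loss of each array in turn, and its other 2 probe sets rose by 1.33 and 0.91. Without SHP the difference was 0.42 ± 0.17 (adjusted p = 0.145). Macrophages, which are rich in lysosomal lipase, had markers that moved in the same direction: 6 of 8 rose in OB-/- against wild-type. Their summed linear level was 882 to 886 in wild-type, 1742 to 2105 in SHP-/-, 2161 to 2194 in OB-/- and 2799 to 3300 in OB-/-/SHP-/-. In OB-/-/SHP-/- against OB-/- 2 of 8 rose, Mpeg1 by 1.70 ± 0.18 and Marco by 1.60 ± 0.35. There Cd163, Vsig4, Cd68, Csf1r and Clec4f differed by -0.44 to -0.11 and Adgre1 by 0.02, without passing. Mpeg1 alone passed in SHP-/- against wild-type and in OB-/-/SHP-/- against SHP-/-. No macrophage marker was at 0, the lowest being 4.33 on the log2 scale, and their part in the Lipa result was not tested.

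Npc1 and Npc2 pass cholesterol out of lysosomes. Npc1 read 8.66 and 8.18 in wild-type, 8.74 and 8.72 for SHP-/-, 8.09 and 7.94 for OB-/- and 8.15 and 8.12 for OB-/-/SHP-/-. The leptin-null arrays are lower, by little at wild-type replicate 2. Npc1 fell by 0.60 ± 0.16 in OB-/-/SHP-/- against SHP-/- (adjusted p = 0.0416), a call lost without any array of SHP-/-, OB-/- or OB-/-/SHP-/- (adjusted p up to 0.153), and differed by -0.40 ± 0.16 with SHP present (adjusted p = 0.125). Npc2 lay between 10.21 and 10.47 on all 8 arrays and passed in no comparison.

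Abca1, which exports cholesterol to apolipoprotein acceptors, gave an answer that depends on the probe set. The brightest lay between 10.03 and 10.57 on all arrays and differed by -0.19 ± 0.19 in OB-/- relative to wild-type (adjusted p = 0.575). The dimmest read 5.51 and 4.46 in wild-type, 7.14 and 6.68 for SHP-/-, 7.41 and 6.83 for OB-/- and 7.35 and 7.16 for OB-/-/SHP-/-. Tested by itself over all probe sets, the dimmest rose by 2.13 ± 0.31 in OB-/- and by 1.92 ± 0.31 in SHP-/-, each relative to wild-type (adjusted p = 0.00135 and 0.0299). The third rose by 0.72 ± 0.17 in OB-/- (adjusted p = 0.0153) and differed by 0.79 ± 0.17 in SHP-/- (adjusted p = 0.0949). Wild-type, where these 2 probe sets were low, is also the genotype with the highest Gapdh offset, 0.79 and 1.00, and the part of RNA quality was not tested.

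**Figure D3:**
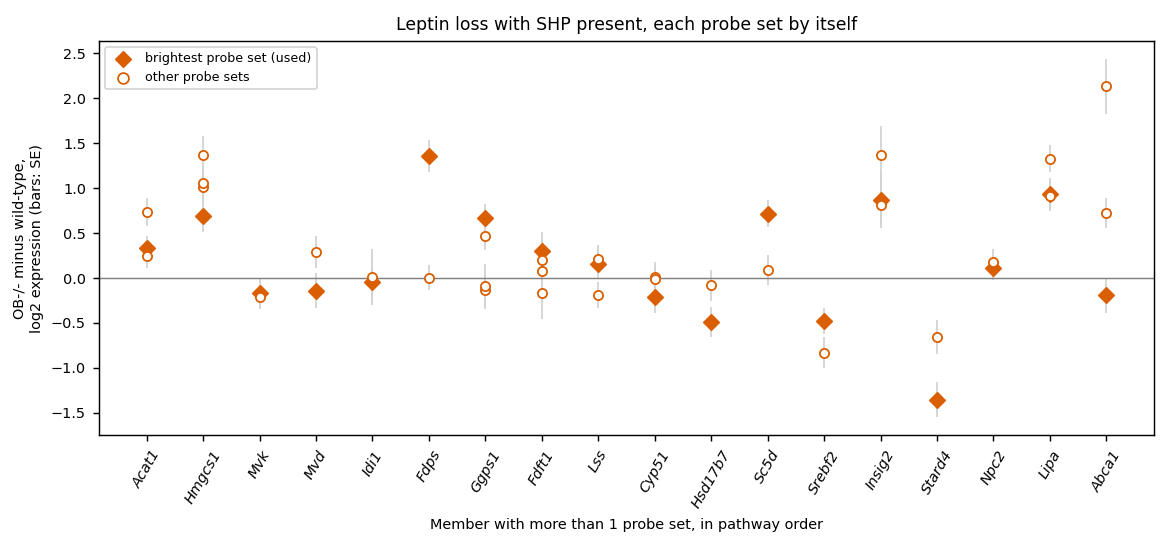
OB-/- minus wild-type in log2 expression for every probe set of the 18 measured members with more than 1, each fitted by itself; diamonds are the brightest probe set, which stands for the gene, circles the others, and bars are moderated standard errors, n = 2 arrays per genotype. The probe sets of Hmgcs1, Insig2 and Lipa lie above 0 and those of Srebf2 and Stard4 below it, while those of Abca1 spread from -0.19 to 2.13.

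SHP loss brought few members past the threshold. In SHP-/- against wild-type 0 members passed by limma, where 0.226% of all genes rose and 0.0968% fell. At an unadjusted p below 0.05 there were 3 members (7.12% of all genes), Fdps, Tm7sf2 and Nsdhl. Of 27 members 22 had a difference above 0, and of the 19 measured synthesis enzymes 18, with Mvk the exception; the median was 0.14 over members and -0.03 over all genes. The member median was 0.27 without wild-type replicate 1 and 0.03 without wild-type replicate 2. Fdps differed by 0.94 ± 0.18 (adjusted p = 0.0654, 95% interval 0.55 to 1.33), and it passed without SHP-/- replicate 2 (1.13, adjusted p = 0.0289) and with a variance trend in the moderation (adjusted p = 0.0163). Tm7sf2 and Nsdhl each differed by 0.58 (adjusted p = 0.295 and 0.422), with both SHP-/- arrays above both wild-type arrays. Arrays did not overlap for 8 members, all higher in SHP-/-, where 14.7% of all genes were higher and 21.4% lower without overlap.

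In OB-/-/SHP-/- against OB-/- 1 member rose, Cyp51, where 1.26% of all genes rose, and 0 fell by limma, where 0.88% of all genes fell. At an unadjusted p below 0.05 there were 5 members (11.7% of all genes), of which Sc5d alone was lower. Cyp51, the cytochrome that removes the first methyl group from lanosterol, read 7.70 and 7.31 in wild-type, 7.64 and 7.60 for SHP-/-, 7.17 and 7.41 for OB-/- and 8.08 and 8.42 for OB-/-/SHP-/-. Both double-knockout arrays exceed the other 6. Cyp51 rose by 0.96 ± 0.17 against OB-/- (1.95-fold, adjusted p = 0.0149), a call lost without either OB-/- array or OB-/-/SHP-/- replicate 2 (adjusted p up to 0.161). It rose by 0.63 ± 0.17 against SHP-/- (adjusted p = 0.0423), a call lost without any SHP-/- or OB-/- array or OB-/-/SHP-/- replicate 2 (up to 0.256). Its dimmer probe sets showed -0.12 and 0.39 against OB-/-, and with the mean of its 3 probe sets the difference was 0.41 (adjusted p = 0.231).

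Sqle differed by 0.75 ± 0.18 in OB-/-/SHP-/- relative to OB-/- (adjusted p = 0.0580) and passed without either SHP-/- array (adjusted p = 0.0387). Sc5d differed by -0.57 ± 0.15 (adjusted p = 0.101). Set beside the fall of Sqle and the rise of Sc5d in OB-/- against wild-type, the double knockout read near wild-type for both genes. These comparisons share the OB-/- arrays, and for Sc5d the statement holds for the brightest probe set only. Its dimmer probe set read 5.34 and 5.53 in wild-type, 5.90 and 5.68 for SHP-/-, 5.30 and 5.74 for OB-/- and 4.95 and 4.92 for OB-/-/SHP-/-. The 2 SHP comparisons share no array, and 19 of 27 members had the same sign in both (70.4%, against 52.8% of all genes), 16 of them above 0.

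**Figure D4:**
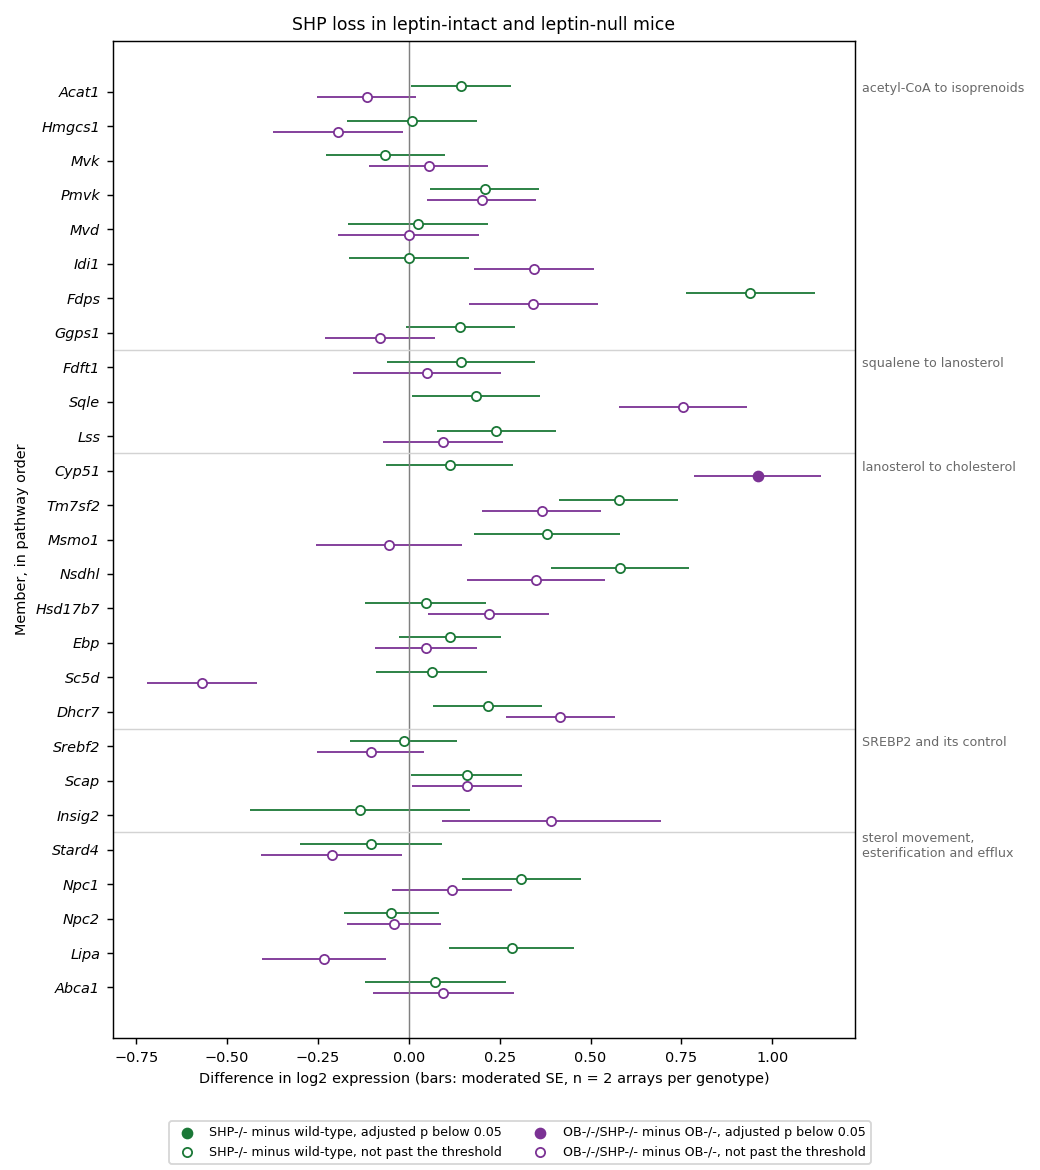
Difference in log2 expression between mice without and with SHP for each of the 27 measured members, in pathway order, in leptin-intact (green) and leptin-null mice (purple); bars are moderated standard errors, n = 2 arrays per genotype, and filled points have an adjusted p below 0.05. Cyp51 in leptin-null mice is the filled point, and most synthesis enzymes lie to the right of 0 in leptin-intact mice.

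The interaction asked whether SHP loss acted differently with and without leptin. By limma 0 members passed in either direction, where 0.355% of all genes were called above 0 and 0.194% below. At an unadjusted p below 0.05 there were 4 members (8.28% of all genes). Cyp51 was at 0.85 ± 0.25 (adjusted p = 0.268), Sc5d at -0.63 ± 0.22 (adjusted p = 0.380), Fdps at -0.60 ± 0.25 (adjusted p = 0.551) and Sqle at 0.57 ± 0.25 (adjusted p = 0.575). No member is therefore shown to respond differently to SHP loss, or to leptin loss, in the other background, and the 95% intervals were wide, from 0.30 to 1.39 for Cyp51.

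The wild-type arrays differed from each other along this pathway. Replicate 1 was higher than replicate 2 for 22 of 27 members (81.5%) and 16 of 19 synthesis enzymes, against 59.9% of all genes. The median gap was 0.30 over members, 0.39 over synthesis enzymes and 0.05 over all genes. The largest gaps were those of Msmo1, 10.30 and 9.65, Hmgcs1, 11.07 and 10.48, and Stard4, 8.59 and 8.02. The other genotypes had median member gaps of 0.01, 0.03 and 0.00 for SHP-/-, OB-/- and OB-/-/SHP-/-, where members differed in both directions. The median size of the gap, without its sign, was 0.33 for wild-type, 0.19 for SHP-/-, 0.10 for OB-/- and 0.15 for OB-/-/SHP-/-. In OB-/- minus wild-type, 4 members rose, in place of 7, without any single wild-type or OB-/- array. The count that fell, 4 with all arrays, was 1 and 3 without wild-type replicates 1 and 2, and 1 and 2 without OB-/- replicates 1 and 2.

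**Figure D5:**
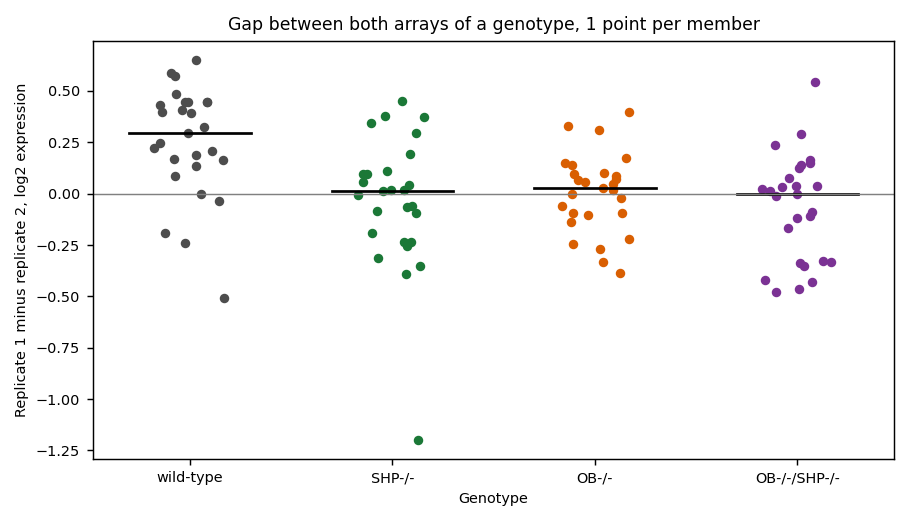
Log2 expression of replicate 1 minus replicate 2 within each genotype, with a point for each of the 27 measured members (spread sideways to separate them) and a line at their median. The wild-type points sit mostly above 0 with a median of 0.30, and 1 SHP-/- point, Insig2, lies at -1.20.

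Other genes of the pathway, 33 listed and 21 measured, gave 2 that rose and 1 that fell under leptin loss with SHP (14.3%, against 16.9% of all genes). Tmem97, a sterol-binding protein of the endoplasmic reticulum that interacts with Npc1, read 8.75 and 8.67 in wild-type, 9.04 and 9.11 for SHP-/-, 9.40 and 9.50 for OB-/- and 9.58 and 9.54 for OB-/-/SHP-/-. Its genotypes follow the order of Fdps and Nsdhl with no overlap. Tmem97 rose by 0.74 ± 0.13 with SHP (adjusted p = 0.00288), which survived the loss of each array in turn, and by 0.48 ± 0.13 without it (adjusted p = 0.0377), lost without any single array (adjusted p up to 0.157).

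Rce1, the protease that trims prenylated proteins, fell by 0.54 ± 0.15 with SHP and by 0.63 ± 0.15 without it (adjusted p = 0.0271 and 0.0210). The first call was lost without any wild-type or OB-/- array and the second without SHP-/- or OB-/-/SHP-/- replicate 2. Mylip, a ubiquitin ligase that marks lipoprotein receptors for breakdown, rose by 0.65 ± 0.20 with SHP (adjusted p = 0.0481), lost without wild-type replicate 2 or either OB-/- array and with array medians made equal. Without SHP, 1 rose and 3 fell (19.0%, against 10.6% of all genes). Erlin1, which acts in sterol-regulated protein breakdown, fell by 0.63 ± 0.15, and the ketone body enzyme Bdh1 by 0.59 ± 0.13 (adjusted p = 0.0225 and 0.0188). Both were lost without either SHP-/- array, Erlin1 also without OB-/-/SHP-/- replicate 2 and Bdh1 without OB-/-/SHP-/- replicate 1. In the SHP comparisons and the interaction 0 of these 21 genes passed by limma, with 1, 0 and 1 at an unadjusted p below 0.05.

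With OB-/- replicate 1 and SHP-/- replicate 1 both left out, leptin loss with SHP gave 5 members higher and 1 lower, and leptin loss without SHP gave 2 higher and 2 lower. For all genes those shares were 3.95% and 5.10%, and 2.57% and 2.53%. Calls kept in both leptin comparisons were those of Fdps, Nsdhl and Stard4.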

How the data were processed

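The data are log2 expression values, deposited by the authors for every probe set on every array; R 2.15.0 is named per the submitters' processing notes. Background correction, summarisation, filters and log base were not given in the sources used here, and base 2 follows from deposited values between 2.20 and 14.19. Array medians lay between 5.45 and 5.56, so no further scaling, pseudocount or filter was applied. Arrays give no counts, so it is their number that limits the precision.

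There were 22690 probe sets, of which 64 were controls and 20380 named 1 gene in the array annotation. The brightest probe set stood for each of 12393 genes. Gene IDs of all 27 measured members matched the RefSeq table of GRCm38.p6 with unchanged symbols. One limma model (version 3.58.1, R 4.3.3) with a mean per genotype took in all 8 arrays (4 residual and 7.16 prior degrees of freedom), and the procedure was tested on simulated data. Two-sided p-values were adjusted within a comparison by the Benjamini-Hochberg method, over every gene. Errors are moderated standard errors (SE). Every probe set was also fitted by itself, adjusted over 22626. A summed linear level adds 2 to the power of each marker's value. Groups and replicate numbers came from the sample titles.

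All measured members were named, with array values where they passed in a comparison. Members, lists and alternatives were chosen with earlier results of these data known. Alternatives were quantile normalisation, equal medians, a filter on dim genes, eBayes with trend, the mean of probe sets, no x_at or s_at probe sets, the replicate number as a block, a fit restricted to the 4 arrays of a comparison, each array left out, and OB-/- replicate 1 and SHP-/- replicate 1 left out together.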

Additional observations from a re-analysis of the deposited data

How the results depend on the processing

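Of the 21 differences of members past the threshold, 0 changed sign under any alternative run. Calls were kept for 20 of 21 with quantile normalisation, with equal array medians and with the replicate number as a block, for 21 of 21 with the filter on dim genes and with eBayes with trend, for 18 with the mean of probe sets, for 19 without x_at and s_at probe sets, for 14 with a fit to the 4 arrays compared, and for 9 with OB-/- replicate 1 and SHP-/- replicate 1 both left out. The last 2 settings use fewer arrays, and so have fewer degrees of freedom. The fit to the 4 arrays compared also makes its own estimate of the spread, and leaving out both replicates also changes the genotype means. Why calls were lost was not tested for any setting. Same-numbered arrays of different genotypes deviated with correlations of -0.11 to 0.20, above 0.1 among wild-type, OB-/- and OB-/-/SHP-/- and below 0 for each pair with SHP-/-, so the numbers were not taken as pairs. The replicate number as a block lost the call of Srebf2 in OB-/- against wild-type and gave 1 member higher, Fdps, in SHP-/- against wild-type (adjusted p = 0.0315), as did eBayes with trend; Insig2 passed under the block in OB-/- relative to wild-type (adjusted p = 0.0409), and the block moved no other count of members by over 1.5 times. In OB-/-/SHP-/- against OB-/- the count of members higher was 2 with eBayes with trend and with the 4 arrays compared, and 0 with the mean of probe sets and with both doubted arrays left out; the count lower was 1 with eBayes with trend and with the mean of probe sets (Sc5d). In OB-/- against wild-type the count lower was 1 with both doubted arrays left out. In OB-/-/SHP-/- against SHP-/- the counts higher and lower were 1 and 1 with the 4 arrays compared and 2 and 2 with both doubted arrays left out. With each array left out in turn, members higher and lower ranged from 0 to 1 and stayed at 0 in SHP-/- against wild-type, from 0 to 2 and at 0 in OB-/-/SHP-/- against OB-/-, from 4 to 8 and 1 to 5 in OB-/- against wild-type, from 1 to 5 and 1 to 3 in OB-/-/SHP-/- against SHP-/-, and stayed at 0 and 0 in the interaction. The mean of probe sets lowered Fdps in OB-/- against wild-type from 1.35 to 0.68 and Sc5d from 0.71 to 0.40, since dim probe sets enter it. A genotype reduced to 1 array is assumed to vary like the others.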
